A study of Mus musculus with 48 samples.

Results

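The 9 genes described here, *Mbp*, *Mog*, *Mag*, *Mobp*, *Cnp*, *Cldn11*, *Ermn*, *Mal* and *Opalin*, are made in the mouse brain by mature oligodendrocytes, the cells that form central myelin. They were chosen by name as markers of those cells, from the 19601 protein-coding genes of the batch-corrected table, and all 9 passed the filter on low counts. RNA was sequenced from the whole substantia nigra (SN) of male C57BL/6J mice that received mouse α-synuclein preformed fibrils (PFFs), or α-synuclein monomer as control, in the right striatum at 121 days of age, and that breathed 21% or 11% O2. Of 48 mice, 12 per group, the authors left out 6, so that the comparisons rest on 11 monomer and 12 PFF mice at 21% O2 and on 9 monomer and 10 PFF mice at 11% O2. The SN was taken 90 to 98 days after injection. The methods give 12 weeks at 11% O2, whereas the deposited design text gives 6 weeks at 21% followed by 6 weeks at 11% for these mice. The injection was made on 1 side of the brain and the piece of tissue was the whole SN, so the fibre tracts caught in it are measured together with its cells.

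Myelin is a sheath of tightly wrapped oligodendrocyte membrane, and its proteins divide among its layers. *Mbp* encodes the basic protein that holds the cytoplasmic faces together, and *Mobp* encodes another protein of compact myelin. *Cnp* encodes an enzyme of the channels of cytoplasm that stay open in the sheath. *Mag* encodes an adhesion protein on the side facing the axon, and *Mog* a protein of the outermost surface. *Cldn11* makes the tight junctions between wraps, *Mal* carries lipid-rich membrane to the sheath, *Ermn* encodes an actin-binding protein that appears late in myelination, and *Opalin* a glycoprotein of the paranodal loops that also appears late. The transcription factors SOX10 and MYRF switch on many genes of the sheath.

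The bases before the start of *Opalin*, *Mog* and *Cnp* are shown because these were the members that passed a test between groups. They come from RefSeq on GRCm38.p6, 5′ to 3′ on the strand of the gene, with any base inside the GENCODE gene removed. Capitals mark the letters of 2 searched motifs on either strand, a SOX motif (ACAAAG or ACAATG) and a MYRF motif (CTGGCAC or CTGGTAC).
*Opalin*, chr19:41077114-41077363, minus strand: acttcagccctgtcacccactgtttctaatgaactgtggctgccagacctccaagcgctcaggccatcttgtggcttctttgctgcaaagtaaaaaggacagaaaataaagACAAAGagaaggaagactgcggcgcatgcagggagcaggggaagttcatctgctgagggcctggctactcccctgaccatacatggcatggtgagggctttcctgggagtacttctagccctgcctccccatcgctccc
*Mog*, chr17:37023399-37023648, minus strand: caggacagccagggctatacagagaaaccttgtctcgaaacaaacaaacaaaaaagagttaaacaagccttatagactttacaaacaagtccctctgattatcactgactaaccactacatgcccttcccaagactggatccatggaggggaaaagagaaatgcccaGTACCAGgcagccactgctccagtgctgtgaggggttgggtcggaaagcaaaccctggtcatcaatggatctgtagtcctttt
*Cnp*, chr11:100574689-100574903, plus strand: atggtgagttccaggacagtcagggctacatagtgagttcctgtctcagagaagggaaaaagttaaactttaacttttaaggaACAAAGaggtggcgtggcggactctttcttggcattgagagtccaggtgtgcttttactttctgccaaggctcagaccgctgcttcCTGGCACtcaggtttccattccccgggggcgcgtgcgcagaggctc
The genes themselves run from 41061710 to 41077113 on chromosome 19 for *Opalin*, from 37010743 to 37023398 on chromosome 17 for *Mog* and from 100574904 to 100591729 on chromosome 11 for *Cnp* (GRCm38). The *Opalin* bases hold 1 SOX motif, the *Mog* bases 1 MYRF motif, and the *Cnp* bases 1 of each. RefSeq promoters were found for 8 of the 9 members, with 10 entries because *Mag* has 3. In the 250 bases before the start, the SOX letters stood in 6 of the 10 entries, from 5 of the 8 genes, and in 25.2% of all 32851 promoters. The MYRF letters stood in 4 of the 10 entries, those of *Cnp*, *Mag* and *Mog*, and in 5.93% of all promoters. The letters ACGTG, the core of the element that hypoxia-inducible factors bind, stood in none of the 10 entries and in 16.6% of all promoters. These matches describe the letters and not binding.

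The members were among the most abundant transcripts of the tissue. In TPM, a scale that allows for gene length and library size, *Mbp* had the highest mean level over the 42 mice, 2657 ± 264 (SD, n = 42), and ranked 18 of 19591 gene symbols. It was followed by *Mobp* at 1492 ± 170 TPM, *Cnp* at 1058 ± 124 TPM and *Mal* at 903 ± 108 TPM. Lower levels were found for *Cldn11* at 770 ± 108 TPM, *Mag* at 597 ± 75.6 TPM, *Mog* at 477 ± 57.9 TPM and *Ermn* at 302 ± 42.6 TPM. *Opalin* was the least abundant, at 107 ± 25.8 TPM, rank 1793. This order hardly varied. Each gene exceeded the next in 42 of 42 mice, except for *Cnp* over *Mal* and *Mal* over *Cldn11*, each in 40, and *Mag* over *Mog*, in 41. Together the 9 genes made up 0.836% ± 0.0870 (SD, n = 42) of all TPM, from 0.675% in a PFF mouse at 21% O2 to 1.13% in a monomer mouse at 11% O2. In bulk tissue, fewer oligodendrocytes and less RNA per oligodendrocyte cannot be told apart.

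**Figure D1:**
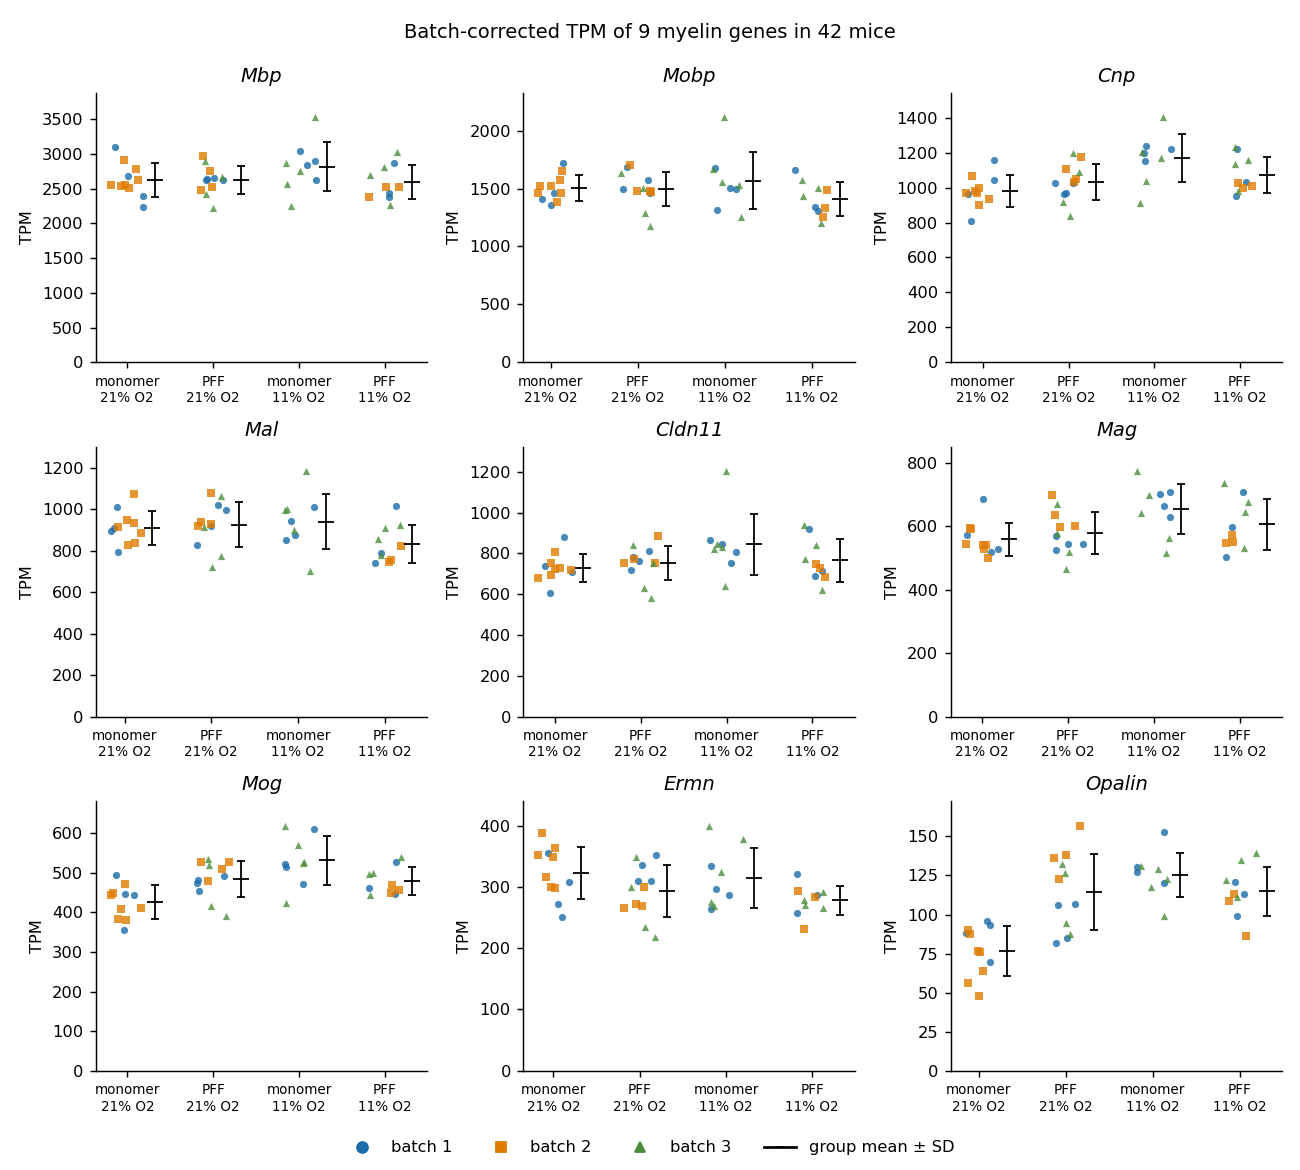
Batch-corrected TPM (y axis, from 0, a separate scale for each gene) of the 9 members in 42 mice by group (x axis). Points are mice, coloured and shaped by batch, and the bar beside them is the group mean ± SD. For *Opalin* the monomer mice at 21% O2 lie lowest, between 47.98 and 95.8 TPM. That group also has the lowest mean for *Mog*, *Mag*, *Cnp* and *Cldn11*, with ranges that overlap those of the other groups. The groups overlap widely for *Mbp*, *Mobp* and *Mal*.

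The dopaminergic neuron genes *Th* and *Slc6a3* were found in every mouse, though *Th* ranged from 96.1 to 1079 TPM between mice. Of the genes that mark Schwann cells, which make the myelin of peripheral nerves, *Pmp2* was listed at 0 in 23 mice, whereas *Drp2* had a mean of 43.4 TPM. Before correction, each of the 42 libraries had 12902996 to 17120921 counts on genes. The labels give 3 batches, which the methods tie to the date on which mice were killed. All 4 groups were present in batch 1, whereas monomer mice at 11% O2 were missing from batch 2 and monomer mice at 21% O2 from batch 3.

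PFF injection at 21% O2 went with a higher level of *Opalin*, but of no other member by both limits of the test. In monomer mice at 21% O2, *Opalin* had a lowest level of 47.98, a median of 76.5 and a highest of 95.8 TPM. In PFF mice at 21% O2 these were 82.1, 115 and 157 TPM. All 12 PFF mice lay above the monomer median and 8 of 12 above the highest monomer mouse, while the ranges overlapped. *Opalin* rose by 0.60 on the log2 scale (SE 0.104), a fold of 1.51, with an adjusted p of 0.000259 in the quasi-likelihood test of edgeR (Benjamini–Hochberg over 14839 genes). A gene was called where that p lay under 0.05 and its change passed 0.25 on the log2 scale, up or down, and 3.7% of all genes tested were called in this comparison, beside 1 of the 9 members.

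Taken batch by batch, *Opalin* differed between PFF and monomer mice in batch 2 but was not called in batch 1. In TPM before correction, the monomer mice of batch 1 at 21% O2 had 84.0 ± 14.2 (SD, n = 4), and the PFF mice 85.5 ± 15.2 (SD, n = 4). In batch 2 the monomer mice had 59.7 ± 11.4 (SD, n = 7), and the PFF mice 113 ± 9.96 (SD, n = 4). The 2 groups thus had like levels in batch 1 and did not overlap in batch 2. The highest monomer mouse of batch 2 was at 73.2 and the lowest PFF mouse at 102 TPM. The share of all genes that lay apart within a batch was not taken, so this separation is not read as a result by itself. Within batch 1 the log2 fold change was 0.053 (SE 0.140, adjusted p = 0.878 by edgeR), and within batch 2 it was 0.93 (SE 0.122, adjusted p = 0.000584). In a test of this difference that was added after the values were seen, the effect in batch 2 minus that in batch 1 was 0.88 in log2 units (SE 0.212), which missed the threshold with an adjusted p of 0.0695 by edgeR, beside 0.432% of 14809 genes called. No other member passed that test either. Batch 3 held no monomer mice at 21% O2, so it gives no value. What sets the batches apart was not tested.

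The remaining members had smaller fold changes between PFF and monomer mice at 21% O2. *Mog* had a lowest, median and highest level of 354, 443 and 494 TPM in monomer mice and of 390, 486 and 535 TPM in PFF mice. Its log2 fold change of 0.20 (SE 0.0583) had an adjusted p of 0.0284 by edgeR but lay under the fold change limit. *Ermn* was the only member with a value below 0, at -0.12 (SE 0.0772, adjusted p = 0.347). The other 6 members lay between 0.010 for *Mobp* and 0.091 for *Cnp*, and the median over the 9 was 0.062, beside 0.00085 over all genes. For *Mbp* the 95% interval of the log2 fold change ran from -0.096 to 0.13. Within batch 2 *Mog* was called too, at 0.29 (adjusted p = 0.0133 by edgeR), against 0.16 (adjusted p = 0.435) in batch 1. *Mag* stood at 0.23 (adjusted p = 0.0463) in batch 2 and -0.030 in batch 1, and *Ermn* at -0.27 (adjusted p = 0.0535) in batch 2 and 0.19 in batch 1. Of all genes tested, 0.0609% were called in batch 1 and 3.91% in batch 2.

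**Figure D2:**
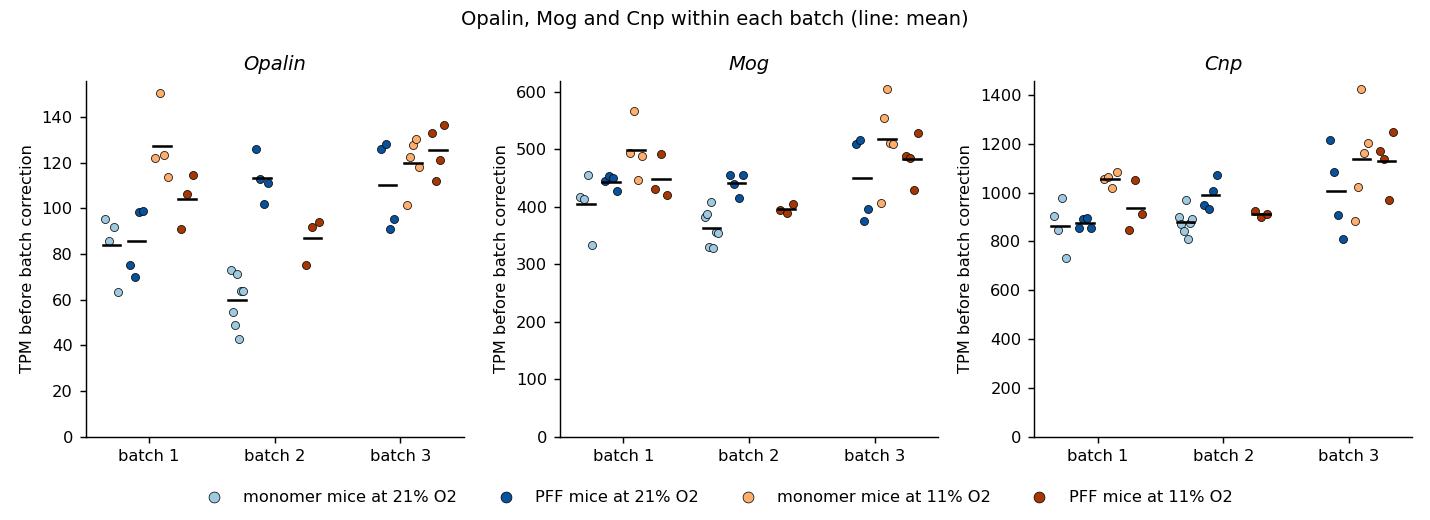
TPM before batch correction (y axis, from 0) of *Opalin*, *Mog* and *Cnp* in the 42 mice, set out by batch and, within a batch, by group (x axis). Points are mice and lines are means. For *Opalin*, monomer and PFF mice at 21% O2 share a range in batch 1 and lie apart in batch 2. In batch 1 the 4 monomer mice at 11% O2 all lie above the 4 at 21% O2. The share of all genes that lie apart within a batch was not taken.

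At 11% O2 no member was called between PFF and monomer mice, and 0% of all genes tested were called. All 9 log2 fold changes lay below 0, from -0.16 for *Ermn* to -0.095 for *Mag*, with a median of -0.13 beside -0.00060 over all genes, and the adjusted p by edgeR was 1.00 for each. At an unadjusted p under 0.05, 2 members passed, *Mal* and *Mog*, and 3.92% of all genes did. DESeq2 called 1 gene, which was no member. *Mobp*, which encodes a protein of compact myelin, had a lowest, median and highest level of 1252, 1530 and 2116 TPM in monomer mice and of 1199, 1388 and 1659 TPM in PFF mice. The ranges overlapped for each of the 9 genes. Since the genes varied together between mice, their shared sign does not count as 9 separate observations. The monomer mouse of replicate 7 had the highest level of all 42 mice for every member except *Opalin*. Without this mouse the median of the 9 was -0.077. Within batch 1 all 9 lay below 0, and within batch 3 6 did and 3 did not.

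In monomer mice, breathing 11% O2 went with higher levels of *Opalin*, *Mog* and *Cnp*. *Opalin* had a lowest, median and highest level of 98.8, 127 and 153 TPM at 11% O2, against 47.98, 76.5 and 95.8 TPM at 21% O2. Each of the 9 mice at 11% O2 lay above each of the 11 at 21% O2, which held for no other member in any comparison. Groups were apart in either direction for 0.391% of all genes tested in this comparison, and for 0.0404% for PFF at 21% O2, 0% for PFF at 11% O2 and 0.0876% for 11% O2 in PFF mice. *Opalin* rose by 0.71 on the log2 scale (SE 0.111), a fold of 1.64, with an adjusted p of 2.3e-05 by edgeR. *Mog* had a lowest, median and highest level of 423, 524 and 618 TPM at 11% O2, against 354, 443 and 494 TPM at 21% O2, and 7 of 9 mice lay above the highest mouse at 21% O2. It rose by 0.32 (SE 0.0624, a fold of 1.25, adjusted p = 0.000396). For *Cnp* these levels were 910, 1199 and 1403 TPM at 11% O2 and 808, 968 and 1157 TPM at 21% O2, with 6 of 9 mice above the highest mouse at 21% O2. It rose by 0.26 (SE 0.0638, adjusted p = 0.00501). Of all genes tested, 7.23% were called in this comparison, beside 3 of the 9 members.

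The other 6 members were not called between monomer mice at 11% and 21% O2. *Mag*, the adhesion gene of the wrap next to the axon, gave 0.23 in log2 units (SE 0.0709) with an adjusted p of 0.0228 by edgeR, just under the fold change limit. The values were 0.22 for *Cldn11* (adjusted p = 0.0628) and 0.11 for *Mbp* (adjusted p = 0.266). *Mobp* at 0.067, *Mal* at 0.049 and *Ermn* at -0.035 lay close to 0, and the median over the 9 members was 0.22, beside -0.0060 over all genes. The 95% interval ran from -0.015 to 0.23 for *Mbp* and from -0.20 to 0.13 for *Ermn*.

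The rise of *Opalin* with 11% O2 in monomer mice was also found within batch 1, the only batch with both groups. Before correction the 4 mice of that batch at 21% O2 lay between 63.5 and 95.1 TPM and the 4 at 11% O2 between 114 and 150 TPM. The log2 fold change was 0.60 (SE 0.139) with an adjusted p of 0.0373 by edgeR, and 2.01% of all genes tested were called. The share of all genes whose groups lay apart in this batch was not taken. Within that batch *Mog* had a log2 fold change of 0.30 (adjusted p = 0.0868) and *Cnp* of 0.29 (adjusted p = 0.0629), so that neither was called with 4 mice against 4. With batch as a covariate and all 48 mice in the model, *Cnp* stood at 0.27 with an adjusted p of 0.0608. Its call in the 42 mice lay at the fold change limit and was lost when monomer replicates 2, 4 or 7 at 11% O2 or 4 or 9 at 21% O2 were left out, with values from 0.23 to 0.2497, while *Mag* and *Cldn11* joined the called members without monomer replicate 5 at 11% O2, which gave 5. *Mag* was also called without monomer replicate 6 at 11% O2 (0.26) or replicate 3 at 21% O2 (0.27). *Cnp* overlaps *Dnajc7* on the opposite strand, and reads were counted without strand, so reads from the shared bases cannot be told apart. *Dnajc7* had a mean count of 21.8% of that of *Cnp* and a log2 fold change of 0.011 (adjusted p = 0.897).

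**Figure D3:**
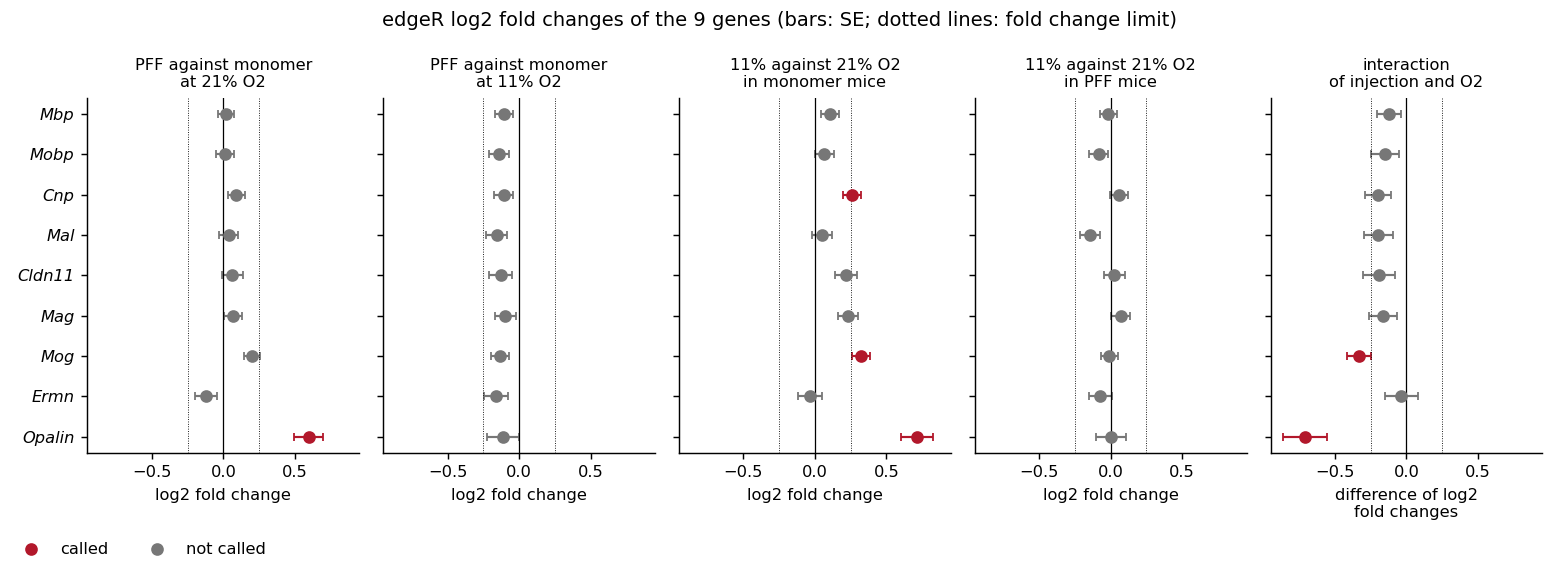
Log2 fold changes from edgeR (x axis) of the 9 members (y axis, in order of their mean TPM) in the 4 comparisons and the interaction. Points are estimates, bars are SE, red points were called, and dotted lines mark the fold change limit of 0.25. *Opalin* stands apart from the other members at 0.60 for PFF at 21% O2 and 0.71 for 11% O2 in monomer mice, and all 9 points lie left of 0 for PFF at 11% O2.

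No member was called between PFF mice at 11% and at 21% O2. The median log2 fold change was -0.011, from -0.15 for *Mal* (SE 0.0684, adjusted p = 0.437 by edgeR) to 0.070 for *Mag*, beside 0.58% of all genes called. *Opalin* had a lowest, median and highest level of 86.3, 113 and 140 TPM in PFF mice at 11% O2, against 82.1, 115 and 157 TPM at 21% O2. Its log2 fold change was 0.0047 with a 95% interval from -0.20 to 0.21. Within single batches the values of *Opalin* differed in sign, at 0.26 in batch 1, -0.35 in batch 2 and 0.17 in batch 3.

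The effect of O2 on *Opalin* and *Mog* differed between injections. The interaction, which is the difference between the O2 effect in PFF mice and that in monomer mice, was -0.71 on the log2 scale for *Opalin* (SE 0.153, adjusted p = 0.00729 by edgeR) and -0.33 for *Mog* (SE 0.0865, adjusted p = 0.0268). These were 2 of the 9 members, against 2.14% of all genes called. All 9 interaction values lay below 0, with a median of -0.19, but the genes varied together between mice and are not 9 separate observations. Among uncalled members the value nearest to the limits was that of *Cnp*, -0.20 (adjusted p = 0.253). For *Opalin* the monomer mice at 21% O2 were the group that stood apart, with a mean of 76.8 ± 15.9 TPM (SD, n = 11) against 115 ± 24.4 (SD, n = 12), 125 ± 14.2 (SD, n = 9) and 115 ± 15.8 TPM (SD, n = 10) in PFF mice at 21%, monomer mice at 11% and PFF mice at 11% O2. This group also had the lowest mean TPM for *Mog*, *Mag*, *Cnp* and *Cldn11*. All comparisons that share this group use the same 11 mice, 7 of them from batch 2. Within batch 1, which alone holds all 4 groups, the interaction was -0.34 for *Opalin* (adjusted p = 0.563) and -0.30 for *Mog* (adjusted p = 0.521), and no member was called, beside 0.0745% of all genes tested. When batch entered the model of uncorrected counts as a covariate, *Opalin* alone was called, and without monomer replicate 2 or 7 at 11% O2 *Mog* dropped out with an adjusted p of 0.0535 or 0.0512.

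The levels of the members were also set against each other within a mouse. The log2 CPM of *Opalin* minus the mean of the other 8 members, with the mean of monomer mice at 21% O2 as zero, was 0.55 ± 0.282 (SD, n = 12) in PFF mice at 21% O2, 0.59 ± 0.148 (SD, n = 9) in monomer mice at 11% O2 and 0.60 ± 0.196 (SD, n = 10) in PFF mice at 11% O2. In these groups 10 of 12, 8 of 9 and 9 of 10 mice lay above all 11 monomer mice at 21% O2. The batches differed in this. In batch 1 the monomer mice at 21% O2 ran from 0.085 to 0.35 and the PFF mice at 21% O2 from 0.0066 to 0.52. In batch 2 these 2 groups ran from -0.53 to 0.24 and from 0.64 to 1.03. The monomer mice of batch 1 at 11% O2 ran from 0.51 to 0.78. The same quantity lay on the other side of zero for *Mal*, where at 11% O2 the 9 monomer mice had a mean of -0.19 (SD 0.066) and the 10 PFF mice one of -0.22 (SD 0.059). Of these, 7 of 9 and 9 of 10 mice lay below all 11 monomer mice at 21% O2. For *Mobp* the means in the 3 groups, in the same order as for *Opalin*, were -0.11, -0.18 and -0.19, with 8 of 12, 7 of 9 and 9 of 10 mice below that range. For *Ermn* they were -0.26, -0.28 and -0.31, and for *Mog* 0.11, 0.12 and 0.12. Each gene is part of the mean that the others are set against, so these values are not independent. This quantity is given without a test.

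Other oligodendrocyte genes were read from lists of related genes. The share of all genes tested that was called was 3.7% for PFF at 21% O2 and 7.23% for 11% O2 in monomer mice. A single called gene in such a short list is not read as a result about that list. Among 14 further genes of the myelin membrane, its junctions and adhesion, 1 was called higher for PFF at 21% O2, *Pllp*, which encodes plasmolipin of the myelin membrane (0.26, SE 0.0804, adjusted p = 0.0406 by edgeR). For 11% O2 in monomer mice 3 of the 14 were called, all higher, *Pllp* at 0.44, the connexin gene *Gjb1* at 0.29 and *Tmem88b* at 0.27, and all 14 values lay above 0, with a median of 0.17. Most of these genes followed the members between mice, so their shared sign does not count as 14 separate observations. Of 7 genes of myelin lipid synthesis 1 was called in that comparison, the fatty acid elongase *Elovl7* (0.29). Of 7 oligodendrocyte transcription factors 3 were called, *Nkx2-2* at 0.30, *Olig1* at 0.29 and *Zfp488* at 0.26. Of 12 other oligodendrocyte markers 2 were called, *Ppp1r14a* at 0.32 and the sphingosine phosphate receptor *S1pr5* at 0.31. Of 10 precursor and premyelinating genes 1 was called, *Bmp4* at 0.73, and in the PFF comparison at 21% O2 1 was called lower, *Gpr17*, a receptor of cells about to myelinate, at -0.43. None of these 50 genes was called for PFF at 11% O2, for 11% O2 in PFF mice or for the interaction. The shares of all genes called there were 0%, 0.58% and 2.14%.

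Markers of vessel cells were higher at 11% O2 in monomer mice, a comparison in which 7.23% of all genes tested were called. Of the 8 endothelial genes 7 were called, with the smallest p for *Cldn5* at 0.74, *Pecam1* at 0.65 and *Flt1* at 0.52, and of the 5 pericyte genes all 5 were, with the smallest p for *Abcc9* at 0.61, *Pdgfrb* at 0.51 and *Kcnj8* at 0.57. The summed level of the endothelial genes was 291 to 402 TPM in monomer mice at 21% O2 and 381 to 656 TPM at 11% O2. The summed level of the pericyte genes was 184.9 to 307.3 TPM at 21% and 245.0 to 568.1 TPM at 11% O2. None of the 11 neuron, 7 dopaminergic neuron, 9 astrocyte, 10 microglia, 4 tested Schwann cell and 8 tested choroid plexus and leptomeningeal genes was called in that comparison, and the median was -0.058 for the neuron genes. The 2 most abundant of each list had values of -0.031 for *Snap25* and -0.089 for *Nefl* in neurons, 0.13 for *Slc6a3* and 0.24 for *Aldh1a1* in dopaminergic neurons, and 0.13 for *Aldoc* and 0.29 for *Gfap* in astrocytes. They were 0.18 for *C1qa* and 0.19 for *C1qb* in microglia, -0.087 for *Drp2* and 0.053 for *Ncmap* in Schwann cells, and 1.08 for *Ttr* and 0.36 for *Slc6a13* in choroid plexus and leptomeninges. All 10 microglia values lay above 0 in that comparison, with a median of 0.18, and all 10 did for PFF at 21% O2, with a median of 0.17 and none called. Genes read in the same mice are not separate observations, and both comparisons use the same 11 monomer mice at 21% O2. For PFF at 21% O2 *Slco1a4* was the endothelial gene called, at 0.45, beside 3.7% of all genes. For 11% O2 in PFF mice *Cldn5* (0.47), *Flt1* (0.53), *Abcc9* (0.58) and *Kcnj8* (0.34) were called, and for the interaction *Pdgfrb* (-0.39). The shares of all genes called in these were 0.58% and 2.14%. The part of these cells in the levels of the 9 members was not tested.

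The members differed between mice of the same group as a block. The standard deviation of log2 CPM (counts scaled to library size) within groups was 0.16 for the median member, from 0.14 for *Mbp* to 0.27 for *Opalin*. The median over all 14839 genes tested was 0.14, but over the 3303 genes with a mean at least as high as that of the lowest member it was 0.11. Among those genes *Mbp* lay at percentile 80.4 and *Opalin* at percentile 97.4. The mean deviation of a mouse over the 9 genes, on the log2 scale, ran from -0.31 in monomer replicate 5 at 11% O2 to 0.33 in monomer replicate 7 at 11% O2, both in batch 3. These 2 mice of the same group thus differed by a fold of 1.56. All 9 genes lay above their group means in 7 of 42 mice and below them in another 7.

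**Figure D4:**
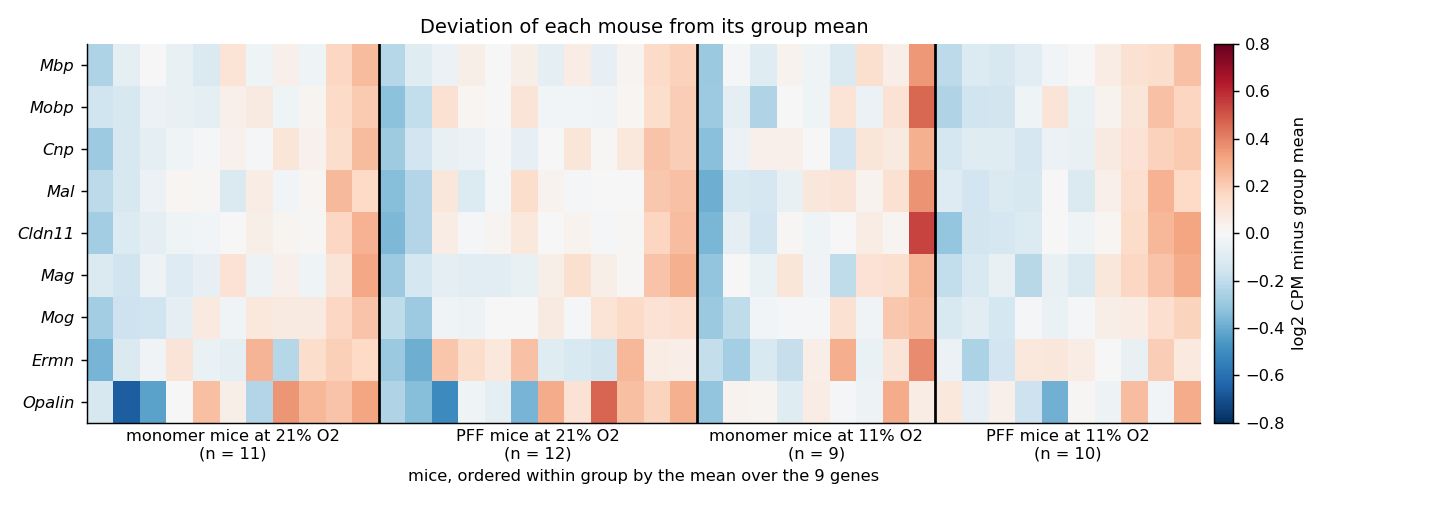
Log2 CPM of the 9 members (rows, in order of mean TPM) in each of 42 mice (columns), minus the mean of the mouse's group. Red is above and blue below the group mean, and mice are ordered within groups by their mean over the 9 genes. Columns tend to have a single colour from *Mbp* to *Mog*, while *Ermn* and *Opalin* often differ from the rest.

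The range of this mean was then taken within each group. Highest over lowest mouse gave a fold of 1.56 in monomer mice at 11% O2, 1.401 in PFF mice at 21%, 1.38 in monomer mice at 21% and 1.28 in PFF mice at 11% O2. Without replicate 7 the first of these was 1.35. *Mobp* ran from 1252 to 2116 TPM and *Cldn11* from 641 to 1202 TPM in monomer mice at 11% O2. Over all mice the ratio of the highest to the lowest TPM was 1.59 for *Mbp* and 3.27 for *Opalin*, with the other 7 members between 1.66 and 2.08. Before correction, batch means of the 9 genes differed from the mean of all 42 mice by -0.038 in batch 1, -0.091 in batch 2 and 0.14 in batch 3 on the log2 scale, and afterwards by 0.0044, -0.044 and 0.042. Batch and group overlap in part, so these batch means also carry group differences.

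Pairs of members followed each other across mice. With group means removed, Pearson's r of log2 CPM over 42 mice was above 0 for all 36 pairs, with a median of 0.76 and Spearman's rho with a median of 0.69. After Benjamini–Hochberg adjustment over the 36 pairs, 33 had a permutation p under 0.05 for r and 33 for rho (100000 permutations within groups, two-sided). The strongest pair was *Mobp* with *Cldn11*, at r = 0.95 and rho = 0.90 (permutation p = 1e-05 for both, the smallest the permutations can give, adjusted 1.44e-05 and 1.8e-05), and r was 0.92 without the 2 mice farthest from the median of *Mobp*. Pairs without *Opalin* had a median r of 0.81 and the 8 pairs with it a median of 0.40. *Opalin* was nearest to *Mog*, at r = 0.64 and rho = 0.65 (permutation p = 1e-05 and 2e-05, adjusted 1.44e-05 and 3.43e-05, r = 0.60 without 2 mice).

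The 3 pairs that missed the threshold were *Ermn* with *Opalin*, *Mag* with *Ermn* and *Mobp* with *Opalin*. *Ermn* and *Opalin* had r = 0.082 and rho = 0.062 (permutation p = 0.626 and 0.711, adjusted 0.626 and 0.711), and r = -0.016 without 2 mice. *Mag* and *Ermn* had r = 0.30 and rho = 0.22 (permutation p = 0.0649 and 0.174, adjusted 0.0668 and 0.179), and r = 0.26 without 2 mice. *Mobp* and *Opalin* had r = 0.28 and rho = 0.30 (permutation p = 0.0482 and 0.053, adjusted 0.0511 and 0.0561), and r = 0.27 without 2 mice. When the counts before correction were used and the mean of each group in each batch was removed, so that only mice of the same group and batch were compared, r was 0.42 for *Ermn* with *Opalin*, 0.50 for *Mag* with *Ermn* and 0.41 for *Mobp* with *Opalin*, and the 36 pairs had a median of 0.82. All genes of a mouse come from the same library.

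**Figure D5:**
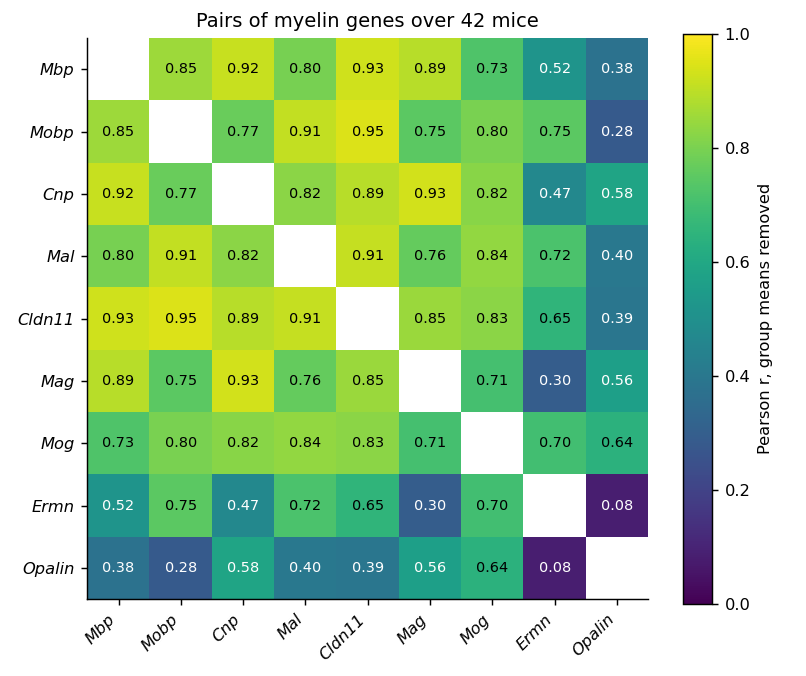
Pearson's r between each pair of the 9 members (both axes, in order of mean TPM) over 42 mice, with group means removed from log2 CPM. Numbers in the cells give r, and the diagonal is left blank. The 28 pairs without *Opalin* have a median of 0.81 and the last row and column, *Opalin*, a median of 0.40.

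The genes outside the list whose levels were most like the mean of the members, by Pearson's r over the 42 mice with group means removed, were *Trf* at 0.95, *Cers2* and *Lpar1* at 0.93, *Carhsp1* and *Gatm* at 0.92, *Slc44a1* at 0.91, and *Litaf* and *Tmbim1* at 0.90. *Trf* and *Cers2* also stood in the lists above. *Trf* encodes transferrin, which oligodendrocytes make, *Cers2* a ceramide synthase of myelin lipids, and *Lpar1* a receptor for lysophosphatidic acid. The 5 most opposed were *Stac* at -0.83, *Sntb1* at -0.71, and *Cntnap5a*, *Gm3667* and *Crhr1* at -0.65. Over 14825 gene symbols the median was -0.030, and 4.38% lay above 0.5. The median was 0.75 for the 14 other myelin membrane genes, 0.72 for the lipid synthesis genes and 0.78 for the other oligodendrocyte markers. It was 0.49 for the transcription factors and 0.39 for the precursor and premyelinating genes, below the median of 0.88 of each member with the mean of the other 8. For other cells it was 0.36 for microglia, 0.32 for astrocytes, 0.25 for pericytes and for choroid plexus and leptomeninges, 0.071 for endothelial cells, -0.072 for Schwann cells, -0.12 for dopaminergic neurons and -0.16 for neurons. These values describe the same 42 libraries and carry no test.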

How the data were processed

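The authors aligned reads to mm10 with STAR 2.7.5a, removed duplicates with Picard 2.21.9 and counted genes of GENCODE vM24 with featureCounts 2.0.1 without strand, keeping primary alignments. They deposited raw counts and TPM of 48 mice, and, after leaving out 6 mice, batch-corrected counts from ComBat-seq and the TPM computed from them for 42. Corrected counts were tested with edgeR 4.0.16 (TMM, filterByExpr, quasi-likelihood, 4 groups in a single fit, Benjamini–Hochberg over 14839 genes). SE is the absolute log2 fold change over the square root of F. On simulated counts for PFF at 21% O2, 175 of 200 genes changed by 0.5 (log2) were called and 2 unchanged ones, among 14794 genes tested. These counts were drawn for each gene separately, with no batch effect and no batch correction. They therefore do not measure the error of the test on the corrected counts. Pairs used log2 CPM with a prior count of 2 (NumPy 2.4.6). Values within batches used counts before correction. Alternatives included DESeq2 1.42.0 and limma 3.58.1. Members and lists were chosen with earlier results of these data known. All 9 members were named. Of each other list the rule named up to 3 called genes with the smallest p, otherwise the 2 of highest TPM (given for 11% O2 in monomer mice), and the 8 most and 5 least like genes. *Th*, *Slc6a3* as a tissue marker, *Pmp2* and *Dnajc7* were chosen after their values were seen. Replicates are separate mice by the labels.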

Additional observations from a re-analysis of the deposited data

Results flagged for a closer look

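In groups of 4 to 10 mice, each member was examined for a mouse far from the others, 18 groups in all, where chance alone marks about 1 in 20. The monomer mouse of replicate 7 at 11% O2 was marked for *Mobp*, at 2116 TPM with the next mouse at 1678 TPM, and for *Cldn11*, at 1202 TPM with the next at 864 TPM. The same mouse had all 9 members above the group mean, so these are not separate observations.

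The effect of O2 differed between monomer and PFF mice for *Opalin*, with an interaction of -0.71 (adjusted p = 0.00729 by edgeR), and for *Mog*, with -0.33 (adjusted p = 0.0268). Within batch 1 alone neither was called.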

How the results depend on the processing

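Counts of called members were 2 instead of 1 for PFF at 21% O2 with the adjusted p alone (*Mog* added), 0 in batch 1 alone (0.0609% of all genes called) and 2 in batch 2 alone (*Opalin* and *Mog*, 3.91%). For 11% O2 in monomer mice the count was 1 in batch 1 alone instead of 3 (2.01% of all genes called). In the same comparison *Cnp* was lost with batch as a covariate in 48 mice (0.27, adjusted p = 0.0608) and *Mag* was added with the adjusted p alone. For the interaction the count was 0 in batch 1 alone (0.0745% of all genes called) and 1 with batch as a covariate in 42 or in 48 mice, instead of 2. Leaving out 1 mouse at a time gave 2 to 5 called members for 11% O2 in monomer mice and 1 to 2 for the interaction, and left the counts of the other comparisons as they were. With the replicate number as a block the counts were 1, 0, 4, 0 and 2 in the order PFF at 21% O2, PFF at 11% O2, 11% O2 in monomer mice, 11% O2 in PFF mice and interaction, with *Mag* added at 0.26 in the third. Outside the single batches, the share of all genes called under each setting is not given here. These counts therefore do not show whether a change in the number called is particular to the members. The paper states that mice were matched across groups by weight, age, delivery date and, where possible, cage. Whether the replicate number follows those matches is not given, and the main test treated the groups as unpaired. Of 54 same-numbered pairs of mice in different groups, 21 had a correlation of their deviations over 0.1. The values ran from -0.40 to 0.56, and 5 mice correlated best with their own number. Such correlations cannot decide whether equal numbers mark matched mice.

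Signs turned among values of comparisons in which the member was not called, and the cause was not tested. For PFF at 21% O2 batch 1 alone gave -0.030 for *Mag* and 0.19 for *Ermn*, and limma on log2(TPM + 1) gave -0.0099 for *Mobp*. For PFF at 11% O2 batch 3 alone gave 0.050 for *Mag*, 0.00045 for *Cnp* and 0.077 for *Opalin*. For 11% O2 in monomer mice batch 1 alone gave 0.0067 for *Ermn*. For 11% O2 in PFF mice batch 1 alone gave 0.0011 for *Mog*, batch 2 alone -0.18 for *Mag*, -0.094 for *Cnp*, -0.10 for *Cldn11* and -0.35 for *Opalin*, and batch 3 alone 0.092 for *Mbp*, 0.088 for *Mog*, 0.037 for *Mobp* and 0.0032 for *Mal*. With 48 mice it gave -0.014 for *Cnp*, -0.0017 for *Cldn11* and -0.045 for *Opalin*. With 1 mouse left out, values for 11% O2 in PFF mice ran from -0.034 to 0.052 for *Opalin*, -0.035 to 0.0051 for *Mog*, -0.044 to 0.0082 for *Mbp* and -0.012 to 0.060 for *Cldn11*, those for PFF at 21% O2 from -0.0085 to 0.037 for *Mobp* and -0.0056 to 0.044 for *Mbp*, and the interaction of *Ermn* from -0.071 to 0.011.

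*Opalin* was called for 11% O2 in monomer mice in all 52 alternatives run, at 0.60 to 0.75 (adjusted p 3.3e-08 to 0.0373). Of the alternatives, 42 left out 1 mouse, in part from groups outside the comparison, and the adjusted p alone could not lose a call. Many of these fits were thus close to the main one and are not separate checks. For PFF at 21% O2 *Opalin* was called in all of 53 but batch 1 alone (0.053). Only batches 1 and 2 held both of these groups, and batch 2 alone gave 0.93. Its interaction was lost in batch 1 alone (-0.34), and that of *Mog* also with batch as a covariate in 42 mice (-0.34, adjusted p = 0.0553) and 48 mice (-0.41, adjusted p = 0.0737). For pairs of members the median r was 0.76 or 0.82 under the alternatives.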

Other observations

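The genes most like *Opalin* itself over the 42 mice, chosen after the values were seen, were not other members. With group means removed, Pearson's r with *Opalin* was 0.88 for *Tmod1*, which encodes a cap of actin filaments, 0.84 for *Mcam*, which encodes a cell adhesion molecule, and 0.82 for *Sytl2*, which encodes a protein of vesicle traffic, against 0.64 for *Mog*, the nearest member. With group and batch means removed from counts before correction, these values were 0.82, 0.79 and 0.76, against 0.67 for *Mog*. For 11% O2 in monomer mice *Mcam* was higher by 0.69 in log2 units (SE 0.0826) with an adjusted p of 1.5e-07 by edgeR, *Tmod1* by 0.59 (adjusted p = 0.000116) and *Sytl2* by 0.29 (adjusted p = 0.00151), and all 3 were called. For PFF at 21% O2 *Mcam* was called, at 0.33 (adjusted p = 0.00607), and *Tmod1*, at 0.29 (adjusted p = 0.0595), and *Sytl2*, at 0.11 (adjusted p = 0.279), were not. The next 7 genes were *Defb42*, *Tnni1*, *Tmem81*, *Arsg*, *Sgk2*, *Tmprss5* and *Ninj2*, with r from 0.80 to 0.74. With group and batch means removed, *Arsg* at 0.64 and *Tmprss5* at 0.57 lay below *Mog*, and the rest did not. Of these 7, *Defb42* (0.69), *Tnni1* (0.56), *Tmem81* (0.53), *Sgk2* (0.48) and *Ninj2* (0.33) were called for PFF at 21% O2. For 11% O2 in monomer mice *Sgk2* (0.67), *Tnni1* (0.55), *Tmem81* (0.42) and *Ninj2* (0.31) were called, and *Defb42*, *Arsg* and *Tmprss5* were not. The shares of all genes called in these comparisons were 3.7% and 7.23%. The interaction was called for *Mcam* (-0.51), *Tnni1* (-0.70), *Tmem81* (-0.68) and *Sgk2* (-0.61), and not for the other 6, beside 2.14% of all genes. At 11% O2 none of the 10 was called between PFF and monomer mice, where 0% of all genes were called.

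The 6 mice that the authors left out were compared with those kept. Against the kept mice of the same group and batch, on counts before correction, the mean log2 deviation over the 9 genes was -0.74 in PFF replicate 2 at 11% O2, a library with 3134594 counts on genes, with all 9 genes lower, and its *Opalin* level was 38.1 TPM against 91.2 to 115 TPM in the 3 kept mice. In the other 5 left-out mice this deviation was -0.089, -0.17, 0.33, 0.15 and -0.25, the last 3 being monomer mice at 11% O2, whose kept mice in that batch ran from -0.35 to 0.36.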
